A study of Mus musculus with 8 samples.

Results

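Mitosis needs a spindle of microtubules, kinetochores that tie each chromosome to it, a checkpoint that holds anaphase until every kinetochore is attached, and a midzone from which the cell is cut in 2. Most genes for these parts are transcribed mainly in G2 and M phase, so in a tissue much of their RNA comes from dividing cells. Which cells the RNA of each member came from was not measured here. In the mouse retina during the first postnatal week, the dividing cells of the neural lineage are the last retinal progenitor cells (RPCs), which are then leaving the cell cycle to become rods, bipolar cells and Müller glia, while cells of the growing vessels and astrocytes divide as well. The genes described here are 50 genes of the mitotic spindle, kinetochore and cytokinesis, found by symbol among the 54532 genes of the deposited table, and all 50 were present and passed the filter on low counts that left 17998 genes to test.

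RNA from whole retinas was sequenced in 4 *Six3-Cre*+; *Mettl3* floxed/floxed samples (Mettl3-CKO) and 4 samples from littermate controls, whose own genotype the labels give only as control. *Mettl3* encodes the catalytic subunit of the complex that writes m6A, a methyl mark on adenosine in mRNA. *Six3-Cre* is used to delete the floxed allele in RPCs and so in the cells that descend from them, not in retinal vessels or microglia. The paper reports efficient loss of the protein in the central retina. The paper also proposes that the RPCs remaining at about this age likely lie at the periphery. How far the allele was deleted in the periphery was not measured here. The labels give the age as postnatal day 7 for all 8 samples, the methods a day earlier, and no source used here gives the strain, sex or number of pups in a sample, so the p-values measure the spread between these samples. The comparison asks how loss of *Mettl3* changes the RNA of mitotic genes in the postnatal retina.

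Total counts were 16227095 to 20281517 per sample, and 3 counts, taken as the smallest amount that can be told from 0, were at most 0.185 CPM (counts scaled to a common library size, with TMM factors). Values per sample are given in order of replicate number, 1 to 4, in each group. The lowest count of any member in any sample was 153, for *Sgo2a*, and at such counts counting error makes up much of the spread between samples. *Mettl3* itself was at 21.1, 29.6, 21.3 and 24.3 CPM in Mettl3-CKO and 33.8, 32.5, 29.4 and 29.3 CPM in the controls. Mettl3-CKO replicate 2 reached the control range, and the difference (log2 fold change -0.38, SE 0.12) missed the threshold of 0.05 with an edgeR adjusted p of 0.0602. Counts were summed over the whole gene, and the sources used here do not say which exons are deleted. The residual level is thus not a measure of how many cells were deleted. Whole retinas also hold cells outside the RPC lineage, and deletion in the peripheral retina was not measured here.

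The 50 members summed to 5374, 5231, 4684 and 3981 CPM in Mettl3-CKO and to 3089, 3911, 3417 and 3460 CPM in the controls. The lowest Mettl3-CKO sample thus stood just above the highest control sample, and the mean was 1.39 times the control mean. That gap rested on *Mki67*. Without it the sums were 4283, 4305, 3811 and 3253 CPM in Mettl3-CKO and 2685, 3402, 2978 and 2976 CPM in the controls. Mettl3-CKO replicate 4 then lay below control replicate 2. A total of 20 members (40.0%) rose at an edgeR adjusted p under 0.05 and 0 fell, against 6.49% of all tested genes that rose and 4.05% that fell. At an unadjusted p under 0.05, 37 members were higher and 0 lower, against 13.5% and 11.1% of all tested genes. DESeq2 called 27 members higher and 0 lower, adding *Top2a*, *Bub1b*, *Spc24*, *Spc25*, *Dlgap5*, *Hmmr* and *Kif4*. The log2 fold change was positive for 48 members and negative for *Cdc20* and *Pttg1*, with a median of 0.35 over the members and -0.01 over all tested genes. For 16 members every Mettl3-CKO sample was above every control sample, which was so for 9.77% of all tested genes. In bulk RNA, a larger share of cells in mitosis and more of these transcripts in each such cell cannot be told apart.

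The number of members that passed changed when 1 sample was left out, which also makes its group smaller. How much came from the smaller group and how much from the sample itself was not tested. The count of 20 became 7 without Mettl3-CKO replicate 1, 8 without Mettl3-CKO replicate 2, 10 without Mettl3-CKO replicate 3, 10 without control replicate 3 and 11 without control replicate 4, while it was 25 without Mettl3-CKO replicate 4, 15 without control replicate 2 and 22 without control replicate 1. Over all tested genes, the number that rose also went down from 1168 to 509 without Mettl3-CKO replicate 1. The 7 members called in each of the 8 fits were *Knl1*, *Mki67*, *Aspm*, *Cenpf*, *Sgo1*, *Birc5* and *Cenpe*.

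**Figure D1:**
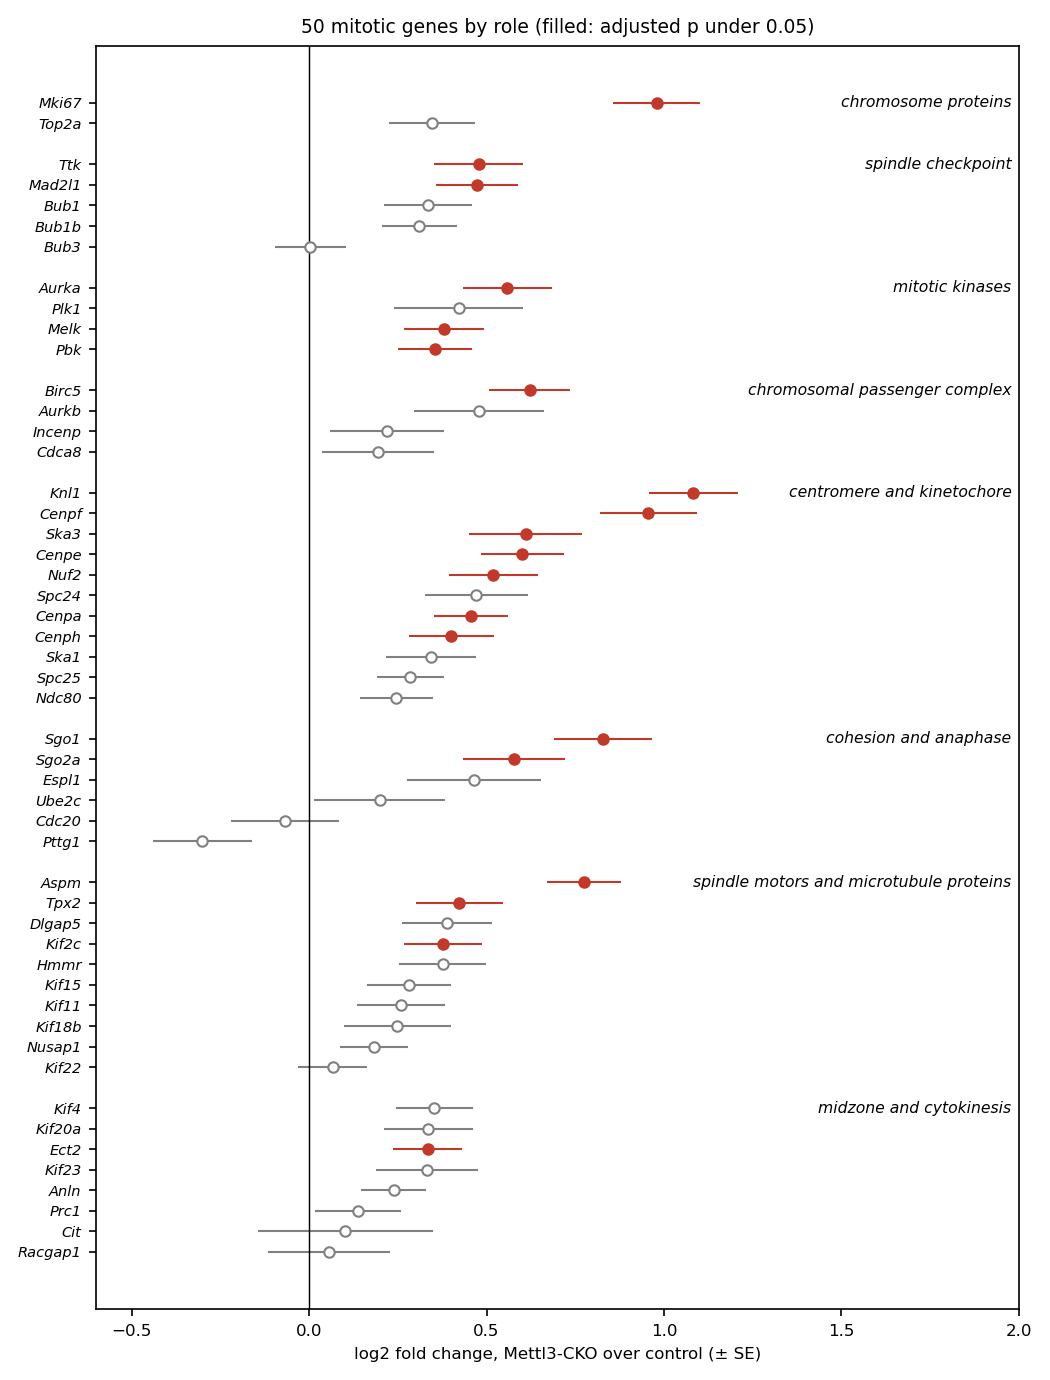
Log2 fold change (Mettl3-CKO over control, x axis) of each of the 50 members, with bars of 1 standard error, grouped by role. The 20 filled points passed an edgeR adjusted p of 0.05, from *Knl1* at 1.08 to *Ect2* at 0.33, and *Cdc20* and *Pttg1* are the points left of 0.

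Many promoters of mitotic genes carry CCAAT boxes, bound by NF-Y, and a cell cycle genes homology region (CHR), bound by the DREAM and MuvB complexes that keep these genes silent in resting cells and switch them on in G2. To show what the members share beside function, the RefSeq windows from 250 bases before to 50 bases after the start (GRCm38.p6) were searched on both strands for the letters CCAAT and for the letters of the CHR, which are TTTGAA in its usual form. The second form of the CHR that was searched reads TTCGAA. That form is the same on both strands and was counted once. No matches overlap in the windows printed, and each match is a description, not a site. A window was found for 42 of the 50 members, 4 of them with more than 1. CCAAT stood in 29 of the 42 (69.0%) and in 42.1% of the 11925 other tested genes with a window, the CHR letters in 32 (76.2%) against 15.8%, and both in 26 (61.9%) against 6.36%. Over all 26994 genes with a window, tested or not, the shares were 41.0%, 21.7% and 8.6%. Below are the windows of the 4 members with the smallest adjusted p, 5′ to 3′ on the strand of the gene with the searched letters (or their reverse complement) in capitals. Those of *Cdc20* and *Pttg1*, the 2 members with a negative fold change, were added after their values were seen.
Knl1, chr2:119046869-119047168, plus strand: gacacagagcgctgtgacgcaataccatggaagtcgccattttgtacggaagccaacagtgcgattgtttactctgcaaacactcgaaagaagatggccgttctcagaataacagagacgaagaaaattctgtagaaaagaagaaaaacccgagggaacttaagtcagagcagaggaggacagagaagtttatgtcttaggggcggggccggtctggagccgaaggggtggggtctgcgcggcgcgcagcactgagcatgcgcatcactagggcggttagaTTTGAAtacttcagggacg
Mki67, chr7:135716330-135716629, minus strand: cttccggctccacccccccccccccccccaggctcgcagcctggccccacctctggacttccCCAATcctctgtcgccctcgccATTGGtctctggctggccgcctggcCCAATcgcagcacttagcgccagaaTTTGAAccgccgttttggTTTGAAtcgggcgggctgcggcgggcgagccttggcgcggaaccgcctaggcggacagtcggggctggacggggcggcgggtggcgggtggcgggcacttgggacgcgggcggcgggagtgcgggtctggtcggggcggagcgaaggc
Aspm, chr1:139454523-139454822, plus strand: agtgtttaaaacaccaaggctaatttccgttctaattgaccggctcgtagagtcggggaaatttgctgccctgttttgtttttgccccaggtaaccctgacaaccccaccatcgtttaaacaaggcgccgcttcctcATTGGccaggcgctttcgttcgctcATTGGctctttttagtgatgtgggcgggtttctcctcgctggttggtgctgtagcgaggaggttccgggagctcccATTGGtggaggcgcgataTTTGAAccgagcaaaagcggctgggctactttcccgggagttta
Cenpf, chr1:189688037-189688336, minus strand: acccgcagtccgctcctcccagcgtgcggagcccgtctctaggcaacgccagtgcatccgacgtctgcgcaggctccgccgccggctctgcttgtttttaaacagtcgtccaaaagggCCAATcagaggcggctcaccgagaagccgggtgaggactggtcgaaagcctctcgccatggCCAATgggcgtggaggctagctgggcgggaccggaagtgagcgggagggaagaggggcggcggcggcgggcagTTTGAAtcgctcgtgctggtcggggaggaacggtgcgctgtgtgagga
Cdc20, chr4:118437294-118437593, minus strand: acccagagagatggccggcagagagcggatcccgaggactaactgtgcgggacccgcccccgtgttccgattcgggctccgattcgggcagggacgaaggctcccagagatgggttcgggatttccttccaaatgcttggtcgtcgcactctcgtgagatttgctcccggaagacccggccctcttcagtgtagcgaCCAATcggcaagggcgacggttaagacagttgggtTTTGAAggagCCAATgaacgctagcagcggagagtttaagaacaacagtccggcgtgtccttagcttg
Pttg1, chr11:43425932-43426231, minus strand: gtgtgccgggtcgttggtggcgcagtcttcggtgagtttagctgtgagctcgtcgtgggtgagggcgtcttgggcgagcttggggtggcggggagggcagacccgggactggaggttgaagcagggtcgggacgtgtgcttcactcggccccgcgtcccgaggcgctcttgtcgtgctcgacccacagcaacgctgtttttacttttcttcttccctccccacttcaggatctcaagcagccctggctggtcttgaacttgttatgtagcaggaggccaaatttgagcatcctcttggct
The *Mki67* window held 5 matches, and the *Aspm*, *Cenpf* and *Cdc20* windows held both kinds of motif. *Knl1*, the member with the largest fold change, held 1 match to the CHR letters and none to the CCAAT box, and the *Pttg1* window held neither. The RefSeq start behind that window lies inside *Pttg1* as the deposited table has it (chr11:43420250-43426251), so the window covers part of the gene. In the same table the other genes lie at chr2:119047119-119105501 (*Knl1*), chr7:135689784-135716361 (*Mki67*), chr1:139454772-139494091 (*Aspm*), chr1:189640606-189688086 (*Cenpf*) and chr4:118432901-118437352 (*Cdc20*), all on GRCm38. Members rose with and without the letters: 11 of the 32 members with the CHR letters rose, with a median log2 fold change of 0.33, and 7 of the 10 without them, with a median of 0.44. Among the 29 members with CCAAT 11 rose and among the 13 without it 7 rose.

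Of the chromosome proteins, *Mki67* (Ki-67, which coats mitotic chromosomes and is the usual marker of cycling cells) was at 1092, 927, 873 and 728 CPM in Mettl3-CKO and 405, 509, 438 and 484 CPM in the controls. All 4 Mettl3-CKO samples were far above the controls, and the log2 fold change was 0.98 (SE 0.12, edgeR adjusted p = 0.000701). *Top2a* (topoisomerase II alpha, which untangles sister chromatids) was at 576, 610.2, 559.9 and 433 CPM in Mettl3-CKO and 393, 513, 415 and 392.3 CPM in the controls. Its groups overlapped, since control replicate 2 was above Mettl3-CKO replicate 4, and the log2 fold change of 0.35 (SE 0.12, edgeR adjusted p = 0.0887) missed the threshold (with DESeq2 it passed, at an adjusted p of 0.0459). Per kilobase of gene length, the control level was 47.5 ± 6.36 FPKM (the CPM per kilobase of gene) for *Top2a* and 45.6 ± 4.62 FPKM for *Mki67* (SD, n = 4), and the next members, *Pbk* at 43.1 ± 4.07 and *Cdc20* at 41.5 ± 7.15 FPKM, did not differ from them beyond their spread. In Mettl3-CKO *Top2a* was at 60.4 ± 8.59 and *Mki67* at 89.9 ± 14.9 FPKM. Levels set between genes depend on the length used. The gene length of *Top2a* is 9013 bases, but its spliced GENCODE vM21 model with the longest coding sequence has 5221. For *Mki67* both are 10061 bases. The *Mki67* to *Top2a* ratio of CPM was 1.89, 1.52, 1.56 and 1.68 in Mettl3-CKO and 1.03, 0.992, 1.06 and 1.23 in the controls, so it was higher in each Mettl3-CKO sample than in any control. *Mki67* alone made up 17.7% to 20.3% of the summed CPM of the members in Mettl3-CKO and 12.8% to 14.0% in the controls.

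**Figure D2:**
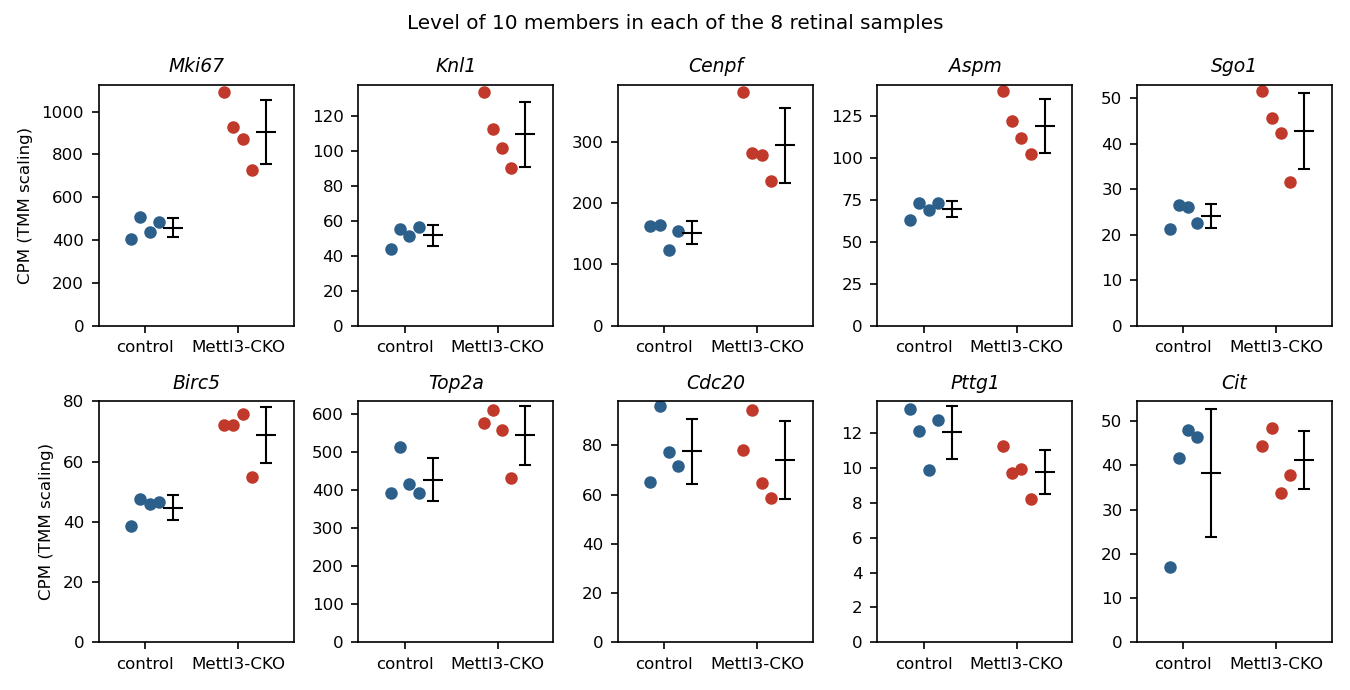
Level in CPM (TMM scaling, y axes from 0) of 10 members in each of the 4 control (blue) and 4 Mettl3-CKO (red) samples in order of replicate, with the group mean and SD in black. The Mettl3-CKO samples of *Mki67*, *Knl1*, *Cenpf*, *Aspm*, *Sgo1* and *Birc5* lie above all controls, and the groups of *Top2a*, *Cdc20*, *Pttg1* and *Cit* overlap.

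Of the centromere and kinetochore genes, the largest list, 7 of 11 rose, with a median log2 fold change of 0.47, and all 11 were at an unadjusted p under 0.05. *Knl1*, the scaffold of the outer kinetochore that recruits the checkpoint kinases, was at 134, 113, 102 and 90.5 CPM in Mettl3-CKO and 43.9, 55.4, 51.2 and 56.6 CPM in the controls. Every Mettl3-CKO sample was above every control, and the log2 fold change of 1.08 (SE 0.13, edgeR adjusted p = 0.000451) was the largest of the members. *Cenpf*, a very long coiled-coil protein of the kinetochore corona, was at 380.2, 282, 279 and 236 CPM in Mettl3-CKO and 163, 165, 124 and 154 CPM in the controls. The change was 0.96 (SE 0.14, edgeR adjusted p = 0.0014), with the lowest Mettl3-CKO sample well above the highest control. *Cenpe*, the kinetochore kinesin that carries chromosomes to the metaphase plate, was at 135, 103, 102 and 94.3 CPM in Mettl3-CKO and 76.3, 74.9, 63.3 and 72.1 CPM in the controls, again without overlap, and changed by 0.60 (SE 0.12, edgeR adjusted p = 0.00743). *Cenpa*, the histone H3 variant that marks the centromere, was at 86.1, 86.9, 82.0 and 70.9 CPM in Mettl3-CKO and 50.1, 66.3, 62.6 and 58.7 CPM in the controls. Its difference was smaller, 0.46 (SE 0.10, edgeR adjusted p = 0.0172), and the groups were still apart.

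The other 3 kinetochore genes that rose were at lower levels. *Nuf2*, of the Ndc80 complex that grips microtubules, was at 61.6, 59.5, 57.9 and 41.7 CPM in Mettl3-CKO and 42.0, 40.9, 38.0 and 33.1 CPM in the controls, with an overlap made by Mettl3-CKO replicate 4 and a log2 fold change of 0.52 (SE 0.13, edgeR adjusted p = 0.0215). *Ska3*, of the complex that holds kinetochores to shrinking microtubules, was at 22.4, 19.8, 15.5 and 15 CPM in Mettl3-CKO and 9.26, 12.6, 12.3 and 13.5 CPM in the controls, with no overlap and a change of 0.61 (SE 0.16, edgeR adjusted p = 0.0288). *Cenph*, of the inner kinetochore, was at 14.9, 15, 16.3 and 13.8 CPM in Mettl3-CKO and 9.74, 12.9, 11.5 and 11.4 CPM in the controls. It was the shortest member, and at 0.40 (SE 0.12) its edgeR adjusted p of 0.04996 was only just under the threshold. Other subunits of the same complexes, *Ndc80*, *Spc24*, *Spc25* and *Ska1*, had log2 fold changes of 0.25 to 0.47 that did not pass with edgeR. With DESeq2, *Spc24* (adjusted p = 0.0226) and *Spc25* (adjusted p = 0.043) passed as well, and a difference between the subunits was not tested.

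In the spindle checkpoint, 2 of 5 genes rose (median 0.33). *Ttk*, the Mps1 kinase that starts checkpoint signalling, was at 36.1, 36.1, 34.3 and 26.9 CPM in Mettl3-CKO and 24.1, 28.6, 22.3 and 20.8 CPM in the controls and changed by 0.48 (SE 0.12, edgeR adjusted p = 0.0293). *Mad2l1*, which binds and holds back the anaphase activator, was at 86.9, 81.3, 89.7 and 64.1 CPM in Mettl3-CKO and 60.6, 64.1, 56.8 and 50.6 CPM in the controls and changed by 0.47 (SE 0.12, edgeR adjusted p = 0.0224). In each, Mettl3-CKO replicate 4 lay inside the control range, and the other 3 Mettl3-CKO samples were above it. *Bub1*, a kinase of the attachment checkpoint, was at 48.7, 59.7, 46.8 and 41.3 CPM in Mettl3-CKO and 33.9, 45.8, 39.4 and 36.7 CPM in the controls, and its 0.33 (SE 0.12) had an edgeR adjusted p of 0.111. *Bub1b*, at 0.31 (SE 0.11), had an adjusted p of 0.0806 with edgeR and 0.0473 with DESeq2. *Bub3*, whose protein binds both, had the smallest change of the members at 0.00357 (SE 0.0988), with a sign that depended on the scaling.

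Of the mitotic kinases, 3 of 4 rose (median 0.40). *Aurka*, the centrosomal Aurora kinase, was at 32.5, 26.7, 25.3 and 25.4 CPM in Mettl3-CKO and 15.1, 21.6, 18.9 and 19.0 CPM in the controls, with no overlap and a log2 fold change of 0.56 (SE 0.13, edgeR adjusted p = 0.0156). *Pbk* was at 97.3, 111, 103 and 83.7 CPM in Mettl3-CKO and 69.5, 76.6, 75.7 and 87.1 CPM in the controls, where control replicate 4 stood above Mettl3-CKO replicate 4, and changed by 0.35 (SE 0.10, edgeR adjusted p = 0.0478). *Melk* was at 42.6, 47.2, 43.1 and 35.8 CPM in Mettl3-CKO and 30.5, 38.7, 29.8 and 30.7 CPM in the controls with control replicate 2 above Mettl3-CKO replicate 4, and changed by 0.38 (SE 0.11, edgeR adjusted p = 0.0489). Both kinases are widely used as markers of dividing cells. *Plk1*, which drives centrosome maturation and mitotic entry, was at 41.3, 37.9, 25.0 and 26.2 CPM in Mettl3-CKO and 19.2, 31.7, 24.3 and 22.1 CPM in the controls. Its 2 upper Mettl3-CKO samples were above all controls and its 2 lower ones within the control range, and the change of 0.42 (SE 0.18, edgeR adjusted p = 0.173) did not pass.

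In the chromosomal passenger complex, which corrects wrong attachments and then moves to the midzone, *Birc5* (survivin) rose and the other 3 subunits did not pass. *Birc5* was at 72.2, 72.3, 75.8 and 55.0 CPM in Mettl3-CKO and 38.5, 47.7, 46.1 and 46.7 CPM in the controls, with no overlap and a log2 fold change of 0.62 (SE 0.11, edgeR adjusted p = 0.00559). *Aurkb*, its kinase, was at 77.3, 83.6, 58.0 and 55.2 CPM in Mettl3-CKO and 31.3, 56.5, 55.3 and 53.6 CPM in the controls. Here control replicate 1 was low, the other 3 controls lay at the level of Mettl3-CKO replicates 3 and 4, and the 0.48 (SE 0.18) had an edgeR adjusted p of 0.124 (0.0135 without the filter on low counts). *Incenp*, the scaffold, was at 97.8, 120.3, 80.5 and 81.2 CPM in Mettl3-CKO and 57.2, 86.3, 89.8 and 92.7 CPM in the controls. The same control was the low one, and the change was 0.22 (SE 0.16, edgeR adjusted p = 0.445). Without control replicate 1 the log2 fold change was 0.31 for *Aurkb*, 0.08 for *Incenp* and 0.56 for *Birc5*, of which only that of *Birc5* passed.

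Of the genes of cohesion and anaphase, 2 of 6 rose (median 0.33), and fitted changes had both signs. *Sgo1* (shugoshin, the guardian of centromeric cohesin) was at 51.5, 45.7, 42.5 and 31.7 CPM in Mettl3-CKO and 21.3, 26.6, 26.1 and 22.5 CPM in the controls, with all Mettl3-CKO samples above the controls and a log2 fold change of 0.83 (SE 0.14, edgeR adjusted p = 0.00331). *Sgo2a* was at 15.8, 13.9, 15.4 and 10.5 CPM in Mettl3-CKO and 8.40, 10.2, 9.44 and 9.25 CPM in the controls, without overlap, and changed by 0.58 (SE 0.14, edgeR adjusted p = 0.0245). Its value is uncertain, since 35.0% of its exon bases overlap *Kctd18* on the opposite strand, use of strand in counting is not given in the sources used here, and the genome holds a near-identical copy, *Sgo2b*. The other 4 genes act in the step that the checkpoint blocks, and none passed (*Espl1* did in edgeR without the filter on low counts, with an adjusted p of 0.0203). *Espl1* (separase, which cuts cohesin) had a log2 fold change of 0.46 (SE 0.19, edgeR adjusted p = 0.148) and *Ube2c*, an enzyme that works with the anaphase-promoting complex, 0.20 (SE 0.18, edgeR adjusted p = 0.563), with 22.8% of its exon bases shared with *Tnnc2* on the opposite strand. *Pttg1* (securin, the inhibitor of separase) was at 11.2, 9.68, 9.93 and 8.21 CPM in Mettl3-CKO and 13.4, 12.1, 9.86 and 12.8 CPM in the controls. The log2 fold change of -0.30 (SE 0.14, edgeR adjusted p = 0.206) missed the threshold, and control replicate 3 lay inside the Mettl3-CKO range. *Cdc20*, which activates the anaphase-promoting complex, was at 78.1, 94.3, 64.8 and 58.4 CPM in Mettl3-CKO and 65.1, 96.1, 77.3 and 71.4 CPM in the controls, and the groups covered the same range with a change of -0.07 (SE 0.15, edgeR adjusted p = 0.838). The *Mki67* to *Cdc20* ratio of CPM was 9.82 to 14.0 in Mettl3-CKO and 5.30 to 6.77 in the controls.

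Of the spindle motors and microtubule proteins, 3 of 10 rose (median 0.33). *Aspm*, a spindle pole protein whose human counterpart is mutated in primary microcephaly, was at 139.7, 122, 112 and 102 CPM in Mettl3-CKO and 63.0, 73.0, 69.1 and 73.1 CPM in the controls. No sample overlapped, and the log2 fold change was 0.77 (SE 0.10, edgeR adjusted p = 0.000983). *Tpx2*, which activates *Aurka* on the spindle, was at 159, 151, 137 and 114 CPM in Mettl3-CKO and 96.4, 123, 109 and 89.4 CPM in the controls and changed by 0.42 (SE 0.12, edgeR adjusted p = 0.044). *Kif2c* (MCAK, a microtubule depolymerase) was at 37.9, 36.2, 32.8 and 27.8 CPM in Mettl3-CKO and 23.2, 27.5, 26.7 and 26.3 CPM in the controls and changed by 0.38 (SE 0.11, edgeR adjusted p = 0.0456). Both were smaller changes than that of *Aspm*, and the Mettl3-CKO range of *Tpx2* reached down to the controls. The motors that push spindle poles apart did not pass: *Kif11* (Eg5) was at 146, 167, 137 and 119 CPM in Mettl3-CKO and 99.7, 144, 117 and 114 CPM in the controls, with a change of 0.26 (SE 0.12, edgeR adjusted p = 0.219), and *Kif15* at 90.7, 97.9, 84.4 and 78.6 CPM in Mettl3-CKO and 56.0, 77.1, 78.7 and 77.5 CPM in the controls, with a change of 0.28 (SE 0.12, edgeR adjusted p = 0.158).

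Cytokinesis genes had the lowest median of the 8 roles, 0.28, and 1 of 8 rose. *Ect2*, the exchange factor that turns on RhoA at the cleavage furrow, was at 85.3, 83.4, 76.4 and 67.8 CPM in Mettl3-CKO and 59.0, 65.4, 66.3 and 57.7 CPM in the controls, with all Mettl3-CKO samples above the controls, and changed by 0.33 (SE 0.10, edgeR adjusted p = 0.0443). *Prc1*, which bundles the microtubules of the midzone, was at 94.0, 106, 84.6 and 80.5 CPM in Mettl3-CKO and 70.0, 100.5, 77.6 and 83.6 CPM in the controls, and its change of 0.14 (SE 0.12, edgeR adjusted p = 0.539) was within the spread. *Cit* (citron kinase), the longest member, was at 44.5, 48.4, 33.8 and 37.9 CPM in Mettl3-CKO and 17.1, 41.8, 48.1 and 46.4 CPM in the controls. Its control replicate 1 had less than any other sample, the change was 0.10 (SE 0.25, edgeR adjusted p = 0.851), and it turned to -0.14 without that control. The other 5 (*Kif4*, *Kif20a*, *Kif23*, *Anln* and *Racgap1*) had log2 fold changes of 0.06 to 0.35. Reads of *Kif20a* are uncertain as well, as 29.3% of its exon bases overlap *Cdc23* on the other strand.

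The change was then set beside the length of each gene, as the sum of its exons in the deposited table, which ran from 1784 to 16417 bases with a median of 4911. Spearman's rho of the log2 fold change with length was 0.117 over the 50 members and 0.00434 over the 17948 other tested genes, a description over genes measured in the same libraries. The 25 shorter members had a median of 0.34 with 9 called, and the 25 longer ones 0.38 with 11 called, a difference of 0.03 in the median log2 fold change. The 5 longest gave changes from 0.10 (*Cit*, 16417 bases) and 0.28 (*Kif15*, 11020 bases) to 0.77 (*Aspm*, 11590 bases), 0.96 (*Cenpf*, 15433 bases) and 0.98 (*Mki67*, 10061 bases). Those of the 5 shortest ran from -0.30 (*Pttg1*, 2000 bases) and -0.07 (*Cdc20*, 1868 bases) to 0.35 (*Pbk*, 1791 bases), 0.40 (*Cenph*, 1784 bases) and 0.42 (*Plk1*, 2199 bases). Taken for each Mettl3-CKO sample against the control mean, the difference between longer and shorter members had an SD of 0.069, more than the difference itself. Any relation with length was thus weak, with exceptions at both ends. Without the 5 members with a very long internal exon, described next, rho was -0.122.

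Of the 5 longest members, the 3 that rose have a very long internal exon, and *Cit* and *Kif15* do not. In the GENCODE vM21 model with the longest coding sequence, the longest internal exon was 6836 bases in *Mki67*, 4497 in *Knl1*, 3795 in *Aspm*, 3428 in *Cenpf* and 2625 in *Sgo2a*, against 1056 or less in the other 45 members and 310 in *Cit*. This split at 2000 bases was chosen after the values were seen, so the following are descriptions. Long genes without such an exon also rose, *Cenpe* (8620 bases, longest internal exon 315) and *Mad2l1* (8390 bases, 180) among them. All 5 genes with the exon rose without overlap, with a median log2 fold change of 0.96, while 15 of the other 45 rose, with a median of 0.34. Their summed CPM was 1761, 1457, 1380 and 1166 in Mettl3-CKO and 683, 812, 693 and 777 in the controls. That of the other 45 was 3613, 3774, 3304 and 2815 against 2406, 3098, 2724 and 2683, where Mettl3-CKO replicate 4 lay inside the control range. The ratio of the 5 to the 45 was 0.386 to 0.487 in Mettl3-CKO and 0.254 to 0.290 in the controls, a measure free of library scaling. *Mki67* made up most of the sum of the 5, at a mean of 905 of 1441 CPM in Mettl3-CKO and 459 of 741 CPM in the controls. The sum and the ratio thus rest largely on that gene. Without the 5 genes, rho over the remaining 45 members was -0.122 with gene length and -0.0232 with the longest internal exon. Among the 261 other tested genes with such an exon, 49 (18.8%) rose and 4 (1.53%) fell, with a median of 0.11. Of the 88 other mitotic genes described next, 1 has such an exon, *Numa1* (3360 bases), and its log2 fold change was -0.09 (SE 0.09, edgeR adjusted p = 0.589). In the classes of other tested genes with shorter longest exons, 4.85% to 10.1% rose. The letters GGACT, the most common form of the m6A consensus, were found 13 times in these 5 exons, or 0.614 per kilobase, and 1.01 times per kilobase in the exons of the 261 genes. No m6A was measured in these samples.

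**Figure D3:**
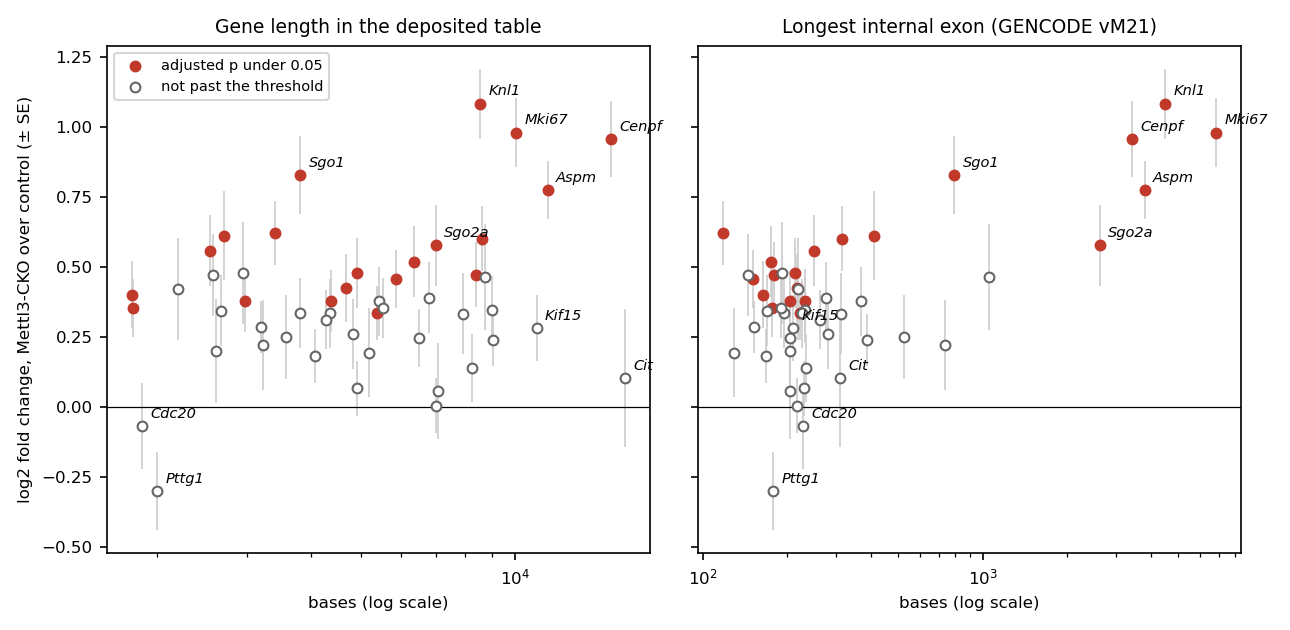
Log2 fold change (y axis, bars 1 SE) of the 50 members against gene length (left) and longest internal exon (right), both in bases on a log axis, with filled points past an adjusted p of 0.05. The relation with gene length is loose, while the 5 members with an exon over 2000 bases all lie at 0.58 or above.

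Outside the 50 members, 88 other mitotic genes were looked up from lists of the same processes. Of these, 26 (29.5%) rose and 0 fell, with a median of 0.32. The other kinetochore and centromere genes gave 11 of 29, led by *Mis12*, of the complex beside *Knl1* (1.23, SE 0.15, edgeR adjusted p = 0.000659), and *Cenpl* (0.64, SE 0.12, edgeR adjusted p = 0.00557) and *Zwilch* (0.68, SE 0.12, edgeR adjusted p = 0.00566). Spindle and centrosome genes gave 7 of 24, with *Haus6*, an augmin subunit (0.74, SE 0.10, edgeR adjusted p = 0.000983), *Ckap2* (0.66, SE 0.11, edgeR adjusted p = 0.00282) and *Ckap2l* (0.74, SE 0.13, edgeR adjusted p = 0.00483) first. Condensation and cohesion genes gave 4 of 17, with *Cdca5*, which is sororin, the protector of cohesin (1.15, SE 0.17, edgeR adjusted p = 0.00149), ahead of *Cdca2* (0.80, SE 0.12, edgeR adjusted p = 0.00199) and the condensin subunit *Smc2* (0.45, SE 0.10, edgeR adjusted p = 0.0157). Mitotic entry and cytokinesis genes gave 4 of 18, where *Gmnn* (geminin, the inhibitor of licensing, 0.52, SE 0.13, edgeR adjusted p = 0.0216), *Shcbp1* (0.47, SE 0.12, edgeR adjusted p = 0.0272) and *Pimreg* (0.37, SE 0.10, edgeR adjusted p = 0.0274) came first. *Mis12* and *Cdca5* had larger log2 fold changes than any member, and their longest internal exons are 162 and 474 bases.

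DNA replication genes, which mark S phase, moved in the same direction: 12 of 33 rose and 0 fell, with a median of 0.39. Their summed CPM was 2552, 2673, 2571 and 2136 in Mettl3-CKO and 1743, 2084, 2092 and 1983 in the controls. The ratio of members to replication genes was 1.82 to 2.11 in Mettl3-CKO and 1.63 to 1.88 in the controls, so the ranges overlapped. Of 16 retinal progenitor markers, 3 rose and 0 fell.

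**Figure D4:**
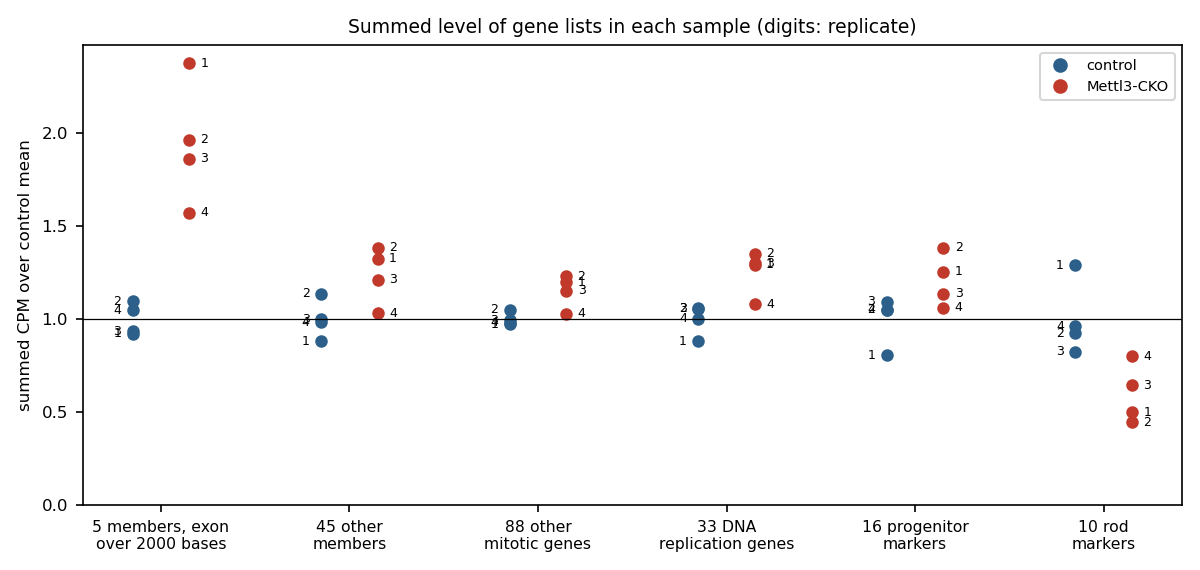
Summed CPM of 6 gene lists in each sample, divided by the mean of the 4 controls (y axis from 0), with control samples in blue, Mettl3-CKO samples in red and digits for the replicate. The sum of the 5 members with an exon over 2000 bases, mostly *Mki67*, stands apart from the controls. Mettl3-CKO replicate 4 is the lowest of its group in the first 5 lists, and the rod sums run the other way.

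The samples differed in the RNA of cell type markers as well, where bulk RNA does not tell cell number from level per cell. Among the Mettl3-CKO samples, replicate 4 was the lowest for 45 of the 50 members, and replicates 1 and 2 were the highest for 22 and 23. Among the controls, replicate 1 was the lowest for 33 and replicate 2 the highest for 35. The summed rod markers were 1943, 1740, 2508 and 3123 CPM in Mettl3-CKO and 5028, 3597, 3214 and 3753 CPM in the controls, with 6 of 10 lower and 0 higher, so within each group the sample with the most rod RNA had the least of the members. Müller glia markers gave 1 higher and 1 lower of 9 tested, and microglia markers 0 of 10 with edgeR (1 at an unadjusted p under 0.05), although all 10 had a positive log2 fold change, with a median of 0.39. Endothelial markers gave 7 lower of 9, astrocyte markers 2 lower of 5, RPE markers 1 higher and 3 lower of 8, and erythrocyte markers 2 lower of 3. The summed endothelial markers still overlapped, at 542 to 640 CPM in Mettl3-CKO and 563 to 659 CPM in the controls. Lens crystallins and other lens markers made up 5190 CPM in control replicate 4 and 6.98 to 95.4 CPM elsewhere, and 5 of 8 were called lower. The part of these differences in the values of the members was not tested.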

How the data were processed

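The authors deposited a table of raw counts per gene, made from paired reads of whole-retina RNA that were filtered, mapped to GRCm38 with HISAT2 and counted with featureCounts, per the methods. The annotation release and the use of strand are not given in the sources used here. The values are whole numbers with unequal totals, as raw counts are, and no pair of samples agreed within sampling noise.

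All 8 samples (4 per group) entered 1 fit in edgeR 4.0.16 (R 4.3.3): filterByExpr, TMM factors, glmQLFit and glmQLFTest with no covariate, Benjamini-Hochberg adjustment over the 17998 genes tested and a threshold of 0.05. The study's methods used DESeq2, run here as an alternative (1.42.0) beside limma 3.58.1. A SE is the absolute log2 fold change divided by the square root of F. The fit was first run on simulated counts with planted changes larger than the median of the members. Recovery of smaller changes was not tested. Of the members, 47 have the length of their GENCODE vM21 exons together.

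Members and lists were chosen with earlier results of these data known. Members were named with values per sample where called, among the 5 longest or 5 shortest, or in a fixed set of 10, and from the other lists the 3 called genes with the smallest adjusted p. Other named members were chosen after their values were seen. No batch is given in the labels.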

Additional observations from a re-analysis of the deposited data

Results flagged for a closer look

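In a group of 4 samples, a value was singled out where its gap to the nearest other sample, as a share of the range of the group, passed Dixon's 95% critical value, which chance gives in about 1 of 20 groups. Of the 100 groups (50 members in 2 groups), 15 had such a sample, and they came from 3 samples. Control replicate 1 was low for 8 members: *Aurkb* at 31.3 CPM (other controls 53.6 to 56.5), *Incenp* at 57.2 (86.3 to 92.7), *Birc5* at 38.5 (46.1 to 47.7), *Cdca8* at 32.5 (49.2 to 50.4), *Espl1* at 29.3 (50.2 to 52.8), *Kif15* at 56.0 (77.1 to 78.7), *Racgap1* at 92.8 (152.0 to 166.6) and *Cit* at 17.1 (41.8 to 48.1). This sample also had the highest rod sum, 5028 CPM, the highest astrocyte sum, 215 CPM, and the highest mitochondrial share of counts, 2.38%.

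Mettl3-CKO replicate 4 was low for 5 members: *Birc5* at 55.0 CPM (other Mettl3-CKO samples 72.2 to 75.8), *Nuf2* at 41.7 (57.9 to 61.6), *Spc25* at 118.9 (141 to 145), *Kif22* at 68.8 (82.7 to 85.6) and *Anln* at 40.7 (45.05 to 45.7). Control replicate 2 was high for 2: *Melk* at 38.7 CPM (29.8 to 30.7) and *Anln* at 42.9 (35.2 to 36.1). The cause was not tested.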

How the results depend on the processing

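The number of members called higher, beside that over all genes tested, was 27 of 1473 with DESeq2, 23 of 2142 with limma voom with sample quality weights, 17 of 1123 with RLE factors, 20 of 1241 with library totals, 25 of 1330 without a filter and 15 of 1045 with a length offset, against 20 of 1168 with edgeR as reported, and 0 were lower in each. All 20 called members were called by DESeq2 too. At an adjusted p under 0.01 the count was 7, and with a 1.5-fold minimum 8. Leaving out 1 replicate gave 7 to 25, with a median log2 fold change of 0.30 to 0.44, and 11 to 32 higher and 0 to 1 lower of the other mitotic genes. Those fits gave rho with length of 0.112 to 0.145 and a difference between longer and shorter members of 0.00333 to 0.0567. With other measures in place of gene length, rho was 0.0657 for genomic span, 0.175 for coding length, 0.286 for spliced length, 0.248 for the longest internal exon, 0.30 for the last exon and -0.0433 for the number of exons (all but the first chosen after seeing the data). Pearson's r on log10 length was 0.280, the partial rho given expression 0.178, and rho without the 5 long-exon members -0.122 (-0.0232 for the longest internal exon). Protein length was not run, for want of a table.

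The sign turned for 4 uncalled members: *Racgap1* (-0.14 with voom, and -0.10 to 0.14 with 1 replicate left out), *Cit* (-0.13 with voom, and -0.14 to 0.23), *Bub3* (-0.000918 with RLE factors, -0.00674 with the length offset, and -0.0456 to 0.0776) and *Cdc20* (-0.206 to 0.0532). The signs turned without control replicate 1 or Mettl3-CKO replicate 2 for *Racgap1*, control replicate 1 for *Cit*, control replicates 3 and 4 or Mettl3-CKO replicate 3 for *Bub3*, and control replicate 2 or Mettl3-CKO replicate 4 for *Cdc20*. The cause was not tested. Of 350 member values under other tools, scalings and filters, 313 kept their sign and side of the threshold, 13 lost and 20 gained a call, and 4 changed sign. Of 400 member values with 1 replicate left out, 322 kept both, 61 lost and 9 gained a call, and 8 changed sign. With voom the median log2 fold change of the members was 0.27.

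The replicate numbers do not mark litters in the labels, and deviations of same-numbered samples correlated at -0.111, 0.215, -0.114 and 0.249, so no pairing was assumed. With the replicate block, 20 members were higher and 0 lower, 16 of them among the 20 called without it.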
